A study of Arabidopsis thaliana with 20 samples.

Results

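The upper step of the kinetin dose series in the ckh1-1 mutant of Arabidopsis thaliana, from 25 to 200 ng/ml, is described here from 4 of the 20 arrays of the study. They were chosen by their titles: 2 arrays of ckh1-1 at 200 ng/ml and 2 at 25 ng/ml. Seedlings had grown for 10 days in dim light, and segments of their hypocotyls were then held for 3 days on a medium that induces callus. All groups, the controls without cytokinin included, received the synthetic auxin 2,4-D at 100 ng/ml. Kinetin was given at 0, 25 or 200 ng/ml to ckh1-1, to ckh2-1 and to the wild type (Ler), and the other wild type group received no kinetin and 100 ng/ml of TSA, a histone deacetylase inhibitor, and enters here only the shared estimate of the spread and the filter on dim probe sets. Each mutant is represented by 1 allele. Each group had 2 arrays, and since no label says that they came from separate cultures, the p-values below measure only the spread between arrays, which may be technical.

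Kinetin is a cytokinin. Cytokinins are sensed by membrane histidine kinases, and the phosphate is relayed to type-B response regulators, which switch on fast targets such as the type-A regulators ARR15 and ARR16, themselves brakes on the pathway. In cultured hypocotyls auxin and cytokinin act together on callus growth, and callus induced by auxin uses factors of lateral root initiation such as LBD16 and PUCHI, while a high ratio of cytokinin to auxin is known to oppose roots and to favour shoots and greening. CKH1 encodes a TAF12-type subunit of the general transcription machinery, CKH2 the chromatin remodeller PICKLE, and mutants of both were found as hypersensitive to cytokinin in tissue culture. The question of the comparison was what a high dose adds to a low one in such a mutant.

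The measurement was the MAS5 signal of each probe set, a brightness on a linear scale with no detection call in the deposited table. The number of arrays limits the precision. Median signals ran from 92.6 to 137 per array, and the log2 values of both arrays of a group correlated across probe sets with r between 0.975 and 0.989. The ckh1-1 arrays at 200 ng/ml had the lowest median of their replicate number, 120 and 92.6, against 131 and 103 at 25 ng/ml. Replicate 1 arrays had a trimmed mean of 310.8 and replicate 2 arrays one of 236.8, so all differences were taken within replicate number. The probe sets of CKH1 and CKH2 carry no name in the array's name table, and the mutations were therefore not checked on their own transcripts. None of the listed markers of xylem, phloem, epidermis, suberin or root hairs had a named probe set, so the tissue was not checked against them.

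Raising kinetin from 25 to 200 ng/ml lowered more transcripts than it raised in ckh1-1. Of 15469 probe sets tested, 560 (3.62%) were lower and 212 (1.37%) higher at 200 ng/ml, 772 in all (4.99%), at an adjusted p below 0.05 (limma with the replicate number as a block). The falls were also larger: their median was -1.10 on the log2 scale against 0.80 for the rises, and 84 probe sets fell by over 2 against 3 that rose by over 2. In these bulk samples fewer cells of a type and less RNA per cell cannot be told apart. Without the replicate block, where the scaling difference enters the error, 258 were lower (1.67%) and 22 higher (0.142%), 280 in all (1.81%), and the share of higher calls went from 27.5% to 7.9%. All 280 of these were also called with the block. With quantile normalization, which gives every array the same distribution, 461 were lower and 218 higher. Leaving out 1 array gave 318 calls without the first 25 ng/ml array, 391 without the second, 519 without the first 200 ng/ml array and 373 without the second, with falls in the majority each time. Of the 772 called probe sets, 377 map to 1 named gene, 8 to several and 387 to none, so much of the response stays unnamed here.

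**Figure D1:**
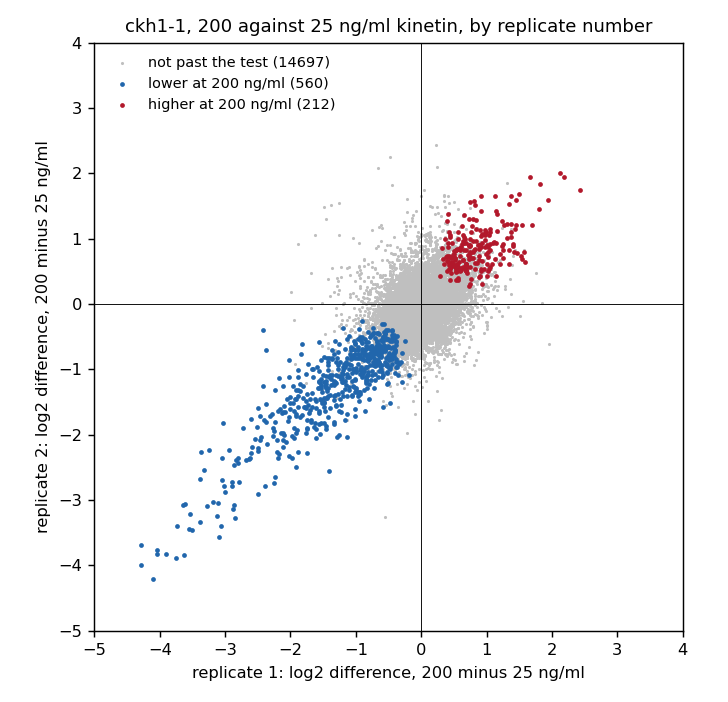
Difference between 200 and 25 ng/ml kinetin in ckh1-1 on the log2(signal + 27.38) scale, within replicate 1 (horizontal axis) and within replicate 2 (vertical axis), for 15469 probe sets. The 560 lower (blue) and 212 higher (red) probe sets lie on the same side of 0 in both replicates, and the falls reach further than the rises. Across all points r was 0.618.

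The genes with the largest falls lost most of their signal on both arrays. All differences below are on the scale of log2(signal + 27.38), which understates the change of dim genes, and each is given with its standard error. The signal of AT4G29020, a glycine-rich protein, was 1975 and 1295 on the 25 ng/ml arrays and 75.8 and 75.1 on the 200 ng/ml arrays, and fell by 3.98 ± 0.20 (adjusted p = 1.34e-08, limma). AT5G01870, a lipid transfer protein of a family of small secreted lipid binders, stood at 10803 and 8134 and dropped to 696 and 546, and fell by 3.87 ± 0.20. The gene kept a clear signal on both 200 ng/ml arrays. AT4G38410, of the dehydrin family of proteins known from water stress, went from 1795 and 1556 to 108 and 80.0 and fell by 3.82 ± 0.36. AT4G21620, another glycine-rich protein, went from 1102 and 664 to 96.5 and 57.5 and fell by 3.11 ± 0.17. In all of these both 200 ng/ml arrays lay below both 25 ng/ml arrays.

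Of the other 8 of the 12 largest falls, 3 are GDSL lipases, described below with their family. AT5G48940 and AT3G24240 are receptor-like kinases known as receptors of root meristem growth factor peptides. The signals of AT5G48940 were 447 and 397 at 25 ng/ml and 31.0 and 34.6 at 200 ng/ml, and fell by 2.90 ± 0.28. Those of AT3G24240 were 706 and 531 and then 71.9 and 53.2, and fell by 2.84 ± 0.20. Both receptors thus lost most of their signal on both arrays. AT1G56680, of the chitinase family, went from 302 and 355 to 17.4 and 16.3 and fell by 3.00 ± 0.30. The plant defensin PDF2.5 went from 373 and 318 to 27.4 and 13.5 and fell by 2.97 ± 0.38. AT5G58750 ended at 3.90 and 4.74, close to the floor, after 232 and 179.7, and fell by 2.87 ± 0.29, and with a pseudocount of 2.738 it fell by 4.88. All 12 genes had adjusted p-values between 1.34e-08 and 0.000146 and remained called under every alternative, the fit without the block included.

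**Figure D2:**
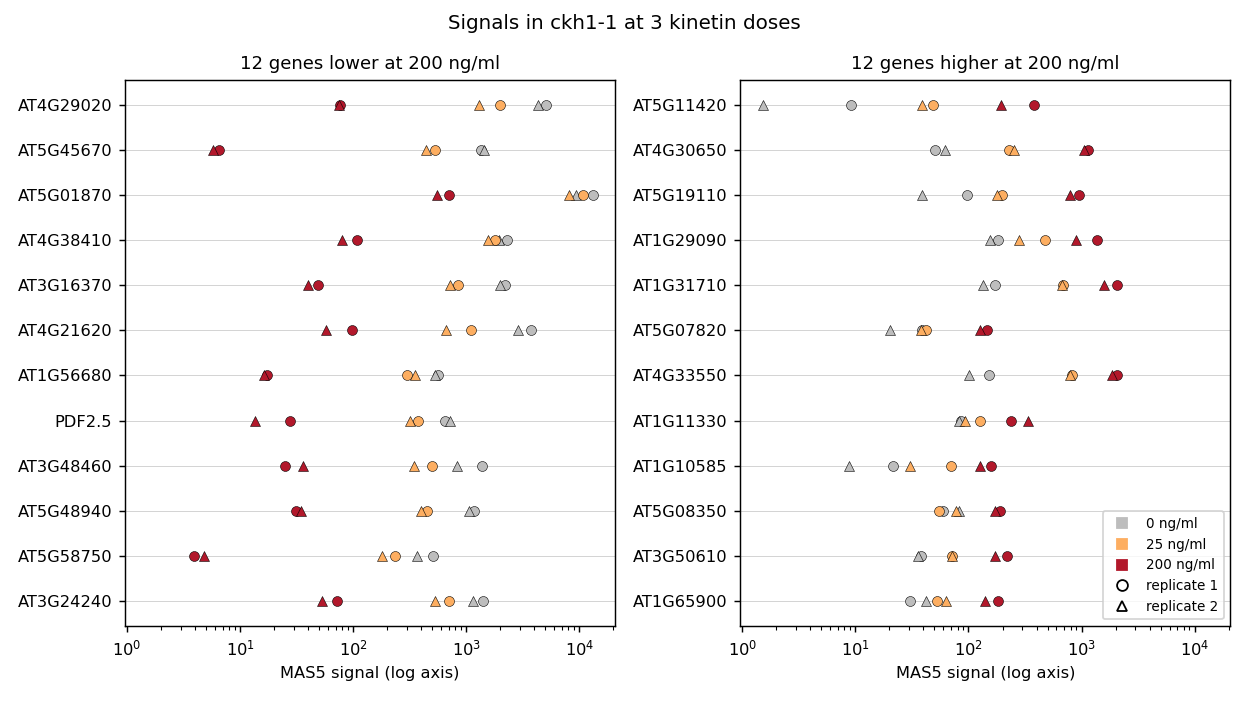
MAS5 signals (log axis) in ckh1-1 of the 12 genes with the largest falls (left) and the 12 with the largest rises (right) between 25 and 200 ng/ml kinetin, ordered by size; each point is 1 array. At 200 ng/ml (red) the falling genes lie far below 25 ng/ml (orange), AT5G45670 at 6.49 and 5.71, while the rising genes, AT5G11420 at 384 and 196, are separated by less.

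The rises were smaller and their genes more mixed. AT5G11420, of the DUF642 family of cell wall proteins, rose from 48.7 and 39.0 to 384 and 196, by 2.09 ± 0.24 (adjusted p = 4.75e-05, limma). AT4G30650, of a low temperature and salt responsive family, rose from 229 and 253 to 1138 and 1048, by 2.06 ± 0.30. AT5G19110, an aspartyl protease family member, rose from 198 and 179 to 956 and 796, by 2.06 ± 0.25. These are the only 3 of the 12 that rose by over 2 on the log2 scale, and in each the arrays of both doses stayed apart. The copper amine oxidase AT1G31710, an enzyme that oxidises polyamines, had signals of 690.3 and 667 and then 2077 and 1576 and rose by 1.38 ± 0.15. AT4G33550, a lipid transfer and protease inhibitor-like protein, went from 828 and 786 to 2039.9 and 1859, by 1.24 ± 0.31. Its call was lost under 8 of 10 alternatives, among them no block (adjusted p = 0.118, limma), quantile normalization and no filter.

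The cysteine proteinase AT1G29090 rose by 1.52 ± 0.34, from 479.5 and 279 to 1359 and 895, and its call was lost without the block (adjusted p = 0.204) and without any 1 of the 4 arrays. The remaining 6 of the 12 rose by 1.14 to 1.27, among them the S-locus lectin kinase AT1G11330 with 1.19 ± 0.22 and the bHLH transcription factor AT1G10585 with 1.17 ± 0.24. The adjusted p-values of the 12 ran from 2.4e-05 to 0.0313. Their support was thinner than that of the falls: 4 of the 12 (AT5G11420, AT4G30650, AT5G19110 and AT1G31710) remained called under every alternative, and 7 without the block.

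Of the type-A response regulators, a direct read-out of cytokinin signalling, only ARR15 could be tested, and its rise only just passed. Of 10 listed, 2 had a named probe set. ARR15 had signals of 41.5 and 56.0 at 25 ng/ml and 174 and 107 at 200 ng/ml, with no overlap, and rose by 1.12 ± 0.31 (adjusted p = 0.0498, limma; 0.205 without the block). That call was lost under 9 of 10 alternatives, with adjusted p-values up to 0.444. At 0 ng/ml its arrays gave 47.3 and 5.80, a wide spread, and the lower step was 0.61 ± 0.31 and did not pass. ARR16 was too dim to be tested, at 11.5 and 10.5 and then 26.0 and 24.7. In wild type ARR15 went from 53.9 and 46.1 to 254 and 94.4 and in ckh2-1 from 63.1 and 50.2 to 223 and 179.5. The upper step of ckh1-1 differed from theirs by -0.14 ± 0.44 and -0.32 ± 0.44, neither past the test. Of the enzymes of cytokinin metabolism, the glucosyltransferase UGT76C2, which inactivates cytokinins by attaching glucose, had 334 and 219.5 and then 205 and 182, a difference of -0.44 ± 0.22 that did not pass (adjusted p = 0.297). UGT76C1 did not pass either, and of the receptors, relay proteins and type-B regulators none could be tested.

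GH3 genes, of which many encode enzymes that attach amino acids to auxin and many, though not all, are switched on by auxin, fell at the upper step in 3 of 4 tested cases. Of 5 GH3 genes named on the array 4 were tested and none rose, with a median of -1.66 against -0.05 over all probe sets tested. Of all these probe sets 3.62% were lower and 1.37% higher. WES1 (GH3.5) went from 3821 and 2607 to 1353 and 721 and fell by 1.65 ± 0.15 (adjusted p = 5.27e-06, limma). GH3.17, an enzyme that acts on the auxin IAA, went from 706 and 493 to 239 and 111 and fell by 1.68 ± 0.18. GH3.1 went from 258 and 186 to 89.5 and 24.4 and fell by 1.66 ± 0.33, and its call was lost without either 25 ng/ml array or without the second 200 ng/ml array (adjusted p up to 0.15). In all 3 the doses did not overlap. The remaining member, GH3.3, did not pass, with 4775 and 4076 and then 4790.4 and 3096, a difference of -0.19 ± 0.22.

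Of the Aux/IAA genes, which encode repressors of auxin response, 7 were named and 4 tested, and 1 fell. Among all probe sets tested 3.62% were lower and 1.37% higher. IAA20 went from 72.9 and 43.1 to 11.8 and 5.75 and fell by 1.22 ± 0.19, and with the pseudocount of 2.738 it fell by 2.41. IAA30 (-0.24 ± 0.32), IAA29 (-0.44 ± 0.22) and IAA18 (0.11 ± 0.14) did not pass. The auxin early response list, which holds 3 of these GH3 and 2 of these Aux/IAA genes, had 5 members tested, 2 lower and none higher, with a median of -0.44.

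Factors of lateral root initiation and of embryo identity fell in the same step. Of 19 listed factors 4 were named and tested, 3 fell (3.62% of all probe sets tested were lower) and none rose, and the median was -1.59. LBD16, an auxin-induced regulator of the first division of lateral root founder cells, went from 559 and 273 to 134 and 91.9 and fell by 1.60 ± 0.20 (adjusted p = 0.000145, limma). PUCHI, an AP2/ERF factor of lateral root primordia, went from 244 and 166 to 56.2 and 43.1 and fell by 1.58 ± 0.17. BBM, an AP2 factor of embryo and root meristem identity, went from 97.2 and 69.1 to 1.47 and 3.43, at the floor of the array, and fell by 1.88 ± 0.28, and with the pseudocount of 2.738 it fell by 4.06. In these genes every 200 ng/ml array was below both 25 ng/ml arrays. LBD29, a close relative of LBD16 and likewise induced by auxin, had 147 and 154 and then 223 and 127, a difference of 0.14 ± 0.37 that did not pass. EEL, a bZIP factor of seed maturation and the 1 named member of 17 listed embryo and seed genes, went from 122 and 97.9 to 40 and 40.8 and fell by 1.01 ± 0.27 (adjusted p = 0.0385, 0.281 without the block). That call was lost under 7 of 10 alternatives, quantile normalization and no filter included.

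**Figure D3:**
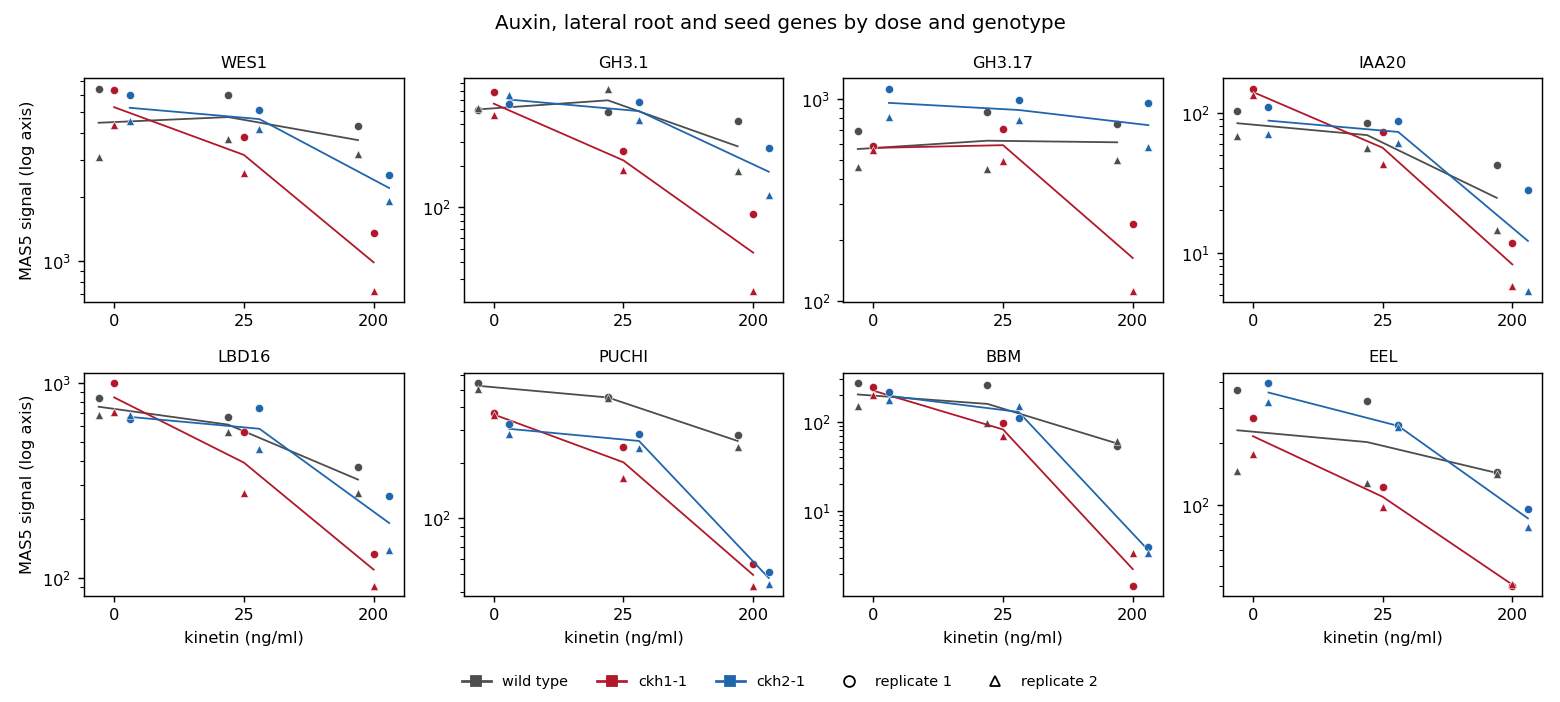
MAS5 signals (log axis) of 8 auxin, lateral root and seed genes at 0, 25 and 200 ng/ml kinetin in wild type (grey), ckh1-1 (red) and ckh2-1 (blue); points are arrays and lines join geometric means of 2 arrays. In ckh1-1 each gene is lowest at 200 ng/ml, with LBD16 at 134 and 91.9 and GH3.17 at 239 and 111.

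GDSL lipases, a large family of secreted esterases that act on lipids and on wall and cuticle polymers, had 5 falls and no rise among 8 tested members, where 3.62% of all probe sets tested were lower and 1.37% higher. Of 15 listed, 14 had a named probe set, and the median of the tested was -1.79. The family's fall was not particular to ckh1-1. At the same step 6 of these 8 were lower in wild type (median -1.34), where 1.68% of all probe sets tested were lower. In ckh2-1 7 were lower (median -1.66), where 5.31% of all were. The members were put on the list with earlier results of these data known. AT5G45670 went from 529 and 439 to 6.49 and 5.71 and fell by 3.93 ± 0.34 (adjusted p = 2.77e-06, limma), and with the pseudocount of 2.738 it fell by 5.78. AT3G16370 went from 839 and 712 to 48.9 and 40.1 and fell by 3.48 ± 0.23. AT1G29670 went from 381 and 226 to 31.3 and 22.4 and fell by 2.57 ± 0.35. The members that fell were all brighter at 25 than at 200 ng/ml on every array. AT1G75900 fell by 2.06 ± 0.25 and its neighbour AT1G75880, already down to 74.7 and 41.1 at 25 ng/ml, by 1.53 ± 0.24. These 2 lie in a cluster of related genes, and shared hybridisation between them was not tested. Another member of the family outside the list, AT3G48460, went from 497 and 341 to 24.7 and 35.9 and fell by 2.94 ± 0.23. The 3 listed members that did not pass were AT2G23540 (0.40 ± 0.16), AT1G74460 (0.11 ± 0.24) and AT3G50400 (0.25 ± 0.28).

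In genes of wall loosening the calls went both ways, where 3.62% of all probe sets tested were lower and 1.37% higher. Of 9 tested expansins, proteins that loosen cell walls, 1 fell and 1 rose, with a median of 0.11. EXPA8 went from 320.0 and 268 to 119 and 46.6 and fell by 1.62 ± 0.25 (adjusted p = 0.000745, limma). The expansin-like gene EXLA1 went from 887 and 709.6 to 1441 and 1391 and rose by 0.81 ± 0.20 (adjusted p = 0.03, 0.626 without the block). Of 6 tested xyloglucan endotransglucosylases, which cut and rejoin wall xyloglucan, XTH32 rose by 1.11 ± 0.24 from 71.0 and 43.3 to 178 and 129.8, a call lost without the first 200 ng/ml or the second 25 ng/ml array (adjusted p up to 0.148). XTH20 fell by 0.87 ± 0.18 and XTH19 by 0.73 ± 0.16, and both lost their calls without the block (adjusted p = 0.201 and 0.781). Of 4 tested genes of xylan and secondary walls 1 rose, with a median of 0.58. That gene, IRX15-L, required for xylan of normal length, had 88.3 and 81.3 and then 186 and 153 and rose by 0.81 ± 0.17 (adjusted p = 0.0102, 0.115 without the block). Its relative IRX15 had 0.77 ± 0.23 and did not pass (adjusted p = 0.07).

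Among 14 tested class III peroxidases, secreted enzymes that cross-link or loosen walls, 2 fell and none rose, with a median of -0.18, against 3.62% lower and 1.37% higher of all probe sets tested. AT4G08780 went from 718 and 752 to 133 and 135 and fell by 2.24 ± 0.16 (adjusted p = 3.84e-07, limma). Its neighbour Prx37 went from 979 and 844 to 496 and 406 and fell by 0.97 ± 0.14 (adjusted p = 0.000545, 0.113 without the block). Both genes are close relatives at adjacent loci, and shared hybridisation was not tested. Of the others, AT5G64120 had 4346 and 3540.1 and then 5670.3 and 4080.0, a difference of 0.29 ± 0.41 that did not pass.

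IQD genes, which encode calmodulin-binding proteins of the cytoskeleton, were grouped after their values were seen and are given as a description. Of 15 named on the array 12 were tested, and 5 were lower and none higher, with a median of -0.53. Of all probe sets tested 3.62% were lower and 1.37% higher. The signal of iqd15 went from 154 and 138 to 10.6 and 15.6, a difference of -2.10 ± 0.17. IQD22 went from 103 and 99.8 to 7.19 and 5.0, a difference of -1.95 ± 0.30, and IQD16 from 120.0 and 103 to 10.3 and 4.68, a difference of -1.99 ± 0.32. All 3 ended near the floor, and with the pseudocount of 2.738 their differences were -3.24, -3.57 and -3.53. IQD26 and IQD18 were lower by smaller amounts (-1.43 ± 0.24 and -1.10 ± 0.26), while IQD31 had -0.15 ± 0.10 and did not pass.

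The tested photosynthesis, greening and division genes, a small part of those listed in the nucleus, did not pass at the upper step. Of all probe sets tested 3.62% were lower and 1.37% higher at this step, so lists of a few members can hold no call by their size alone. Of 42 listed nuclear photosynthesis genes 8 were tested and none was called, with a median of 0.31. RCA, the activase of Rubisco, had 790.4 and 767 and then 1078 and 699, a difference of 0.15 ± 0.21. PSBW, a subunit of photosystem II, had 698 and 769 and then 1056 and 891, a difference of 0.39 ± 0.19. At the lower step, where 5.53% of all probe sets were higher, 5 of these 8 rose, with a median of 0.69, RCA by 1.15 ± 0.21 and PSBW by 1.05 ± 0.19. Both calls were lost without the block (adjusted p = 0.0947 and 0.125) and without the second 25 ng/ml array, and both steps share the 25 ng/ml arrays. None of 68 tested plastid-encoded genes was called at the upper step, with a median of 0.11. Of 17 listed genes of chlorophyll synthesis and greening 2 were tested and none was called. Of 24 listed division genes 4 were tested and none was called, with a median of -0.23. The Aurora kinase AUR1 had 1313 and 919 and then 1212 and 919, a difference of -0.06 ± 0.15.

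For some transcripts of ckh1-1 the lower and the upper dose step differed. At the lower step, from 0 to 25 ng/ml, 855 probe sets were higher (5.53%) and 616 lower (3.98%), 9.51% in all, the reverse balance of the upper step. Without the block these were 181 and 118, and leaving out 1 array gave totals of 524 to 952: 737 without the first 25 ng/ml array and 556 without the second, 524 without the first 0 ng/ml array and 952 without the second. The difference between steps (upper minus lower, 0.31% called) was below 0 for 44 probe sets (0.284%) and above 0 for 4 (0.0259%). The 25 ng/ml arrays enter both steps with opposite sign, and without the first of them 1 call was left, without the second 7. Without the first 0 ng/ml array 22 were left, and without the first or the second 200 ng/ml array 29 and 27. Without the block 8 were left, and 35 were called where every array was first set to the same trimmed mean.

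The lipid transfer protein AT5G01870 had 13183 and 9408 at 0 ng/ml and 10803 and 8134 at 25 ng/ml, a lower step of -0.25 ± 0.20. The steps differed by -3.62 ± 0.34 (adjusted p = 0.000327, limma), the 1 step difference among the named genes called under every alternative. The dehydrin AT4G38410 likewise had 2293 and 1939 and then 1795 and 1556, a lower step of -0.33 ± 0.36, and its steps differed by -3.49 ± 0.62. GH3.17 had 587 and 556 and then 706 and 493, a lower step of 0.04 ± 0.18 and a step difference of -1.73 ± 0.31. In these 3 genes the lower step did not pass the test. Within replicate number AT5G01870 and AT4G38410 were lower at 25 than at 0 ng/ml in both replicates, and GH3.17 was higher in replicate 1 and lower in replicate 2. EXPA8 rose at the lower step, from 78.6 and 92.0, by 1.51 ± 0.25, and fell at the upper step, and the steps differed by -3.13 ± 0.43. AT2G39980, of an acyltransferase family, had 206 and 185 at 0, 302 and 381 at 25 and 96.6 and 42.0 at 200 ng/ml, and a step difference of -2.71 ± 0.48. AT5G02230, of a hydrolase family, showed the opposite order. It went from 1218 and 736 to 246 and 149.9 at the lower step and stood at 230.4 and 142 at 200 ng/ml, and its steps differed by 2.07 ± 0.36. The step differences of these genes other than AT5G01870 were lost under at least 1 alternative, EXPA8 without either 25 ng/ml array alone.

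Other large falls were called at both steps. AT4G29020 fell by 1.53 ± 0.20 at the lower step from 5048 and 4295, AT4G21620 by 1.90 ± 0.17 from 3742 and 2873, and AT1G75880 by 3.06 ± 0.24 from 960.0 and 467. The steps of AT4G29020 still differed, by -2.46 ± 0.35 (adjusted p = 0.00561, limma), a call lost under 2 of 12 alternatives. AT3G16370 and AT3G24240 also fell at both steps, with step differences of -2.08 ± 0.40 and -1.83 ± 0.34. These calls were lost under 10 and 9 of 12 alternatives, no block among them. The step differences of AT4G21620 (-1.20 ± 0.30) and AT1G75880 (1.53 ± 0.42) did not pass. LBD16 and PUCHI fell by 1.05 ± 0.20 and 0.78 ± 0.17 at the lower step, calls lost without the block (adjusted p = 0.148 and 0.124) and without the second 25 ng/ml or the first 0 ng/ml array, that of PUCHI also without the second 0 ng/ml array. For several genes that rose at 25 ng/ml no further rise was called. AT3G45160 rose by 2.53 ± 0.26 at the lower step and differed by 0.73 ± 0.26 at the upper (adjusted p = 0.137, limma). AT4G23670, of the major latex protein family, rose by 2.45 ± 0.32 and then differed by 0.69 ± 0.32 (adjusted p = 0.274), while ZW9 fell by 2.57 ± 0.45 and then by 1.70 ± 0.45 (adjusted p = 0.0391, 0.0644 without the block).

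**Figure D4:**
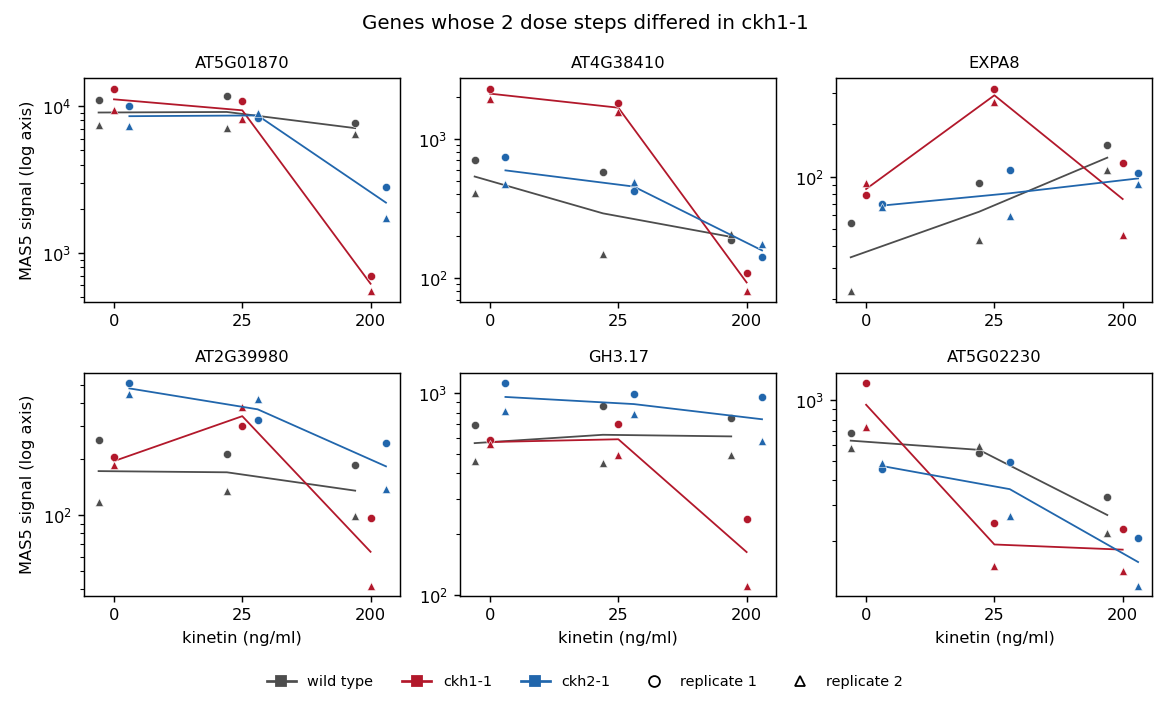
MAS5 signals (log axis) at 0, 25 and 200 ng/ml kinetin of 6 genes whose lower and upper steps differed in ckh1-1; wild type grey, ckh1-1 red, ckh2-1 blue, points are arrays and lines join geometric means. AT5G01870 in ckh1-1 stands at 10803 and 8134 at 25 ng/ml and drops to 696 and 546; EXPA8 peaks at 320.0 and 268; AT5G02230 drops at the lower step.

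The same step in wild type had more rises than falls. There 398 probe sets were higher (2.57%) and 260 lower (1.68%), 4.25% in all, or 46 and 30 without the block, and totals fell from 658 to 146 without the first 200 ng/ml array, 315 without the first 25 ng/ml array and 193 when only the genotypes compared were fitted. Of the 560 probe sets lower in ckh1-1, 132 were also lower in wild type, 23.6% of the ckh1-1 list and 50.8% of the wild type list. Of the 212 higher, 75 were also higher in wild type, 35.4% and 18.8%. The upper step itself differed between ckh1-1 and wild type for 125 probe sets (0.808%), 99 with a lower (0.64%) and 26 with a higher value (0.168%) in ckh1-1. Without the block 28 differed, 25 lower and 3 higher, and 104 differed where every array was first set to the same trimmed mean. Leaving out 1 array gave 62 without the first 25 ng/ml array of ckh1-1, 79 without the second, 79 and 75 without its first and second 200 ng/ml array, 77 without the second wild type array at 200 ng/ml and 75 without the second at 25 ng/ml. The other 2 wild type arrays gave 101 and 179.

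The falls that exceeded those of wild type most were those of AT5G01870, AT4G38410, AT4G29020 and AT5G45670. AT5G01870 had 11699.6 and 7128 at 25 and 7725 and 6499.5 at 200 ng/ml in wild type, so that the step differed between genotypes by -3.50 ± 0.28 (adjusted p = 2.42e-05, limma). AT4G38410 had 574 and 148 and then 188 and 207 in wild type, where the 25 ng/ml arrays disagreed, and differed by -3.29 ± 0.50. AT4G29020 had 6421 and 3964 and then 2535 and 2779 and differed by -3.06 ± 0.29. Wild type thus kept strong signals of the lipid transfer and glycine-rich genes at the dose where ckh1-1 had lost most of its own. AT5G45670 had 1207 and 1407 and then 574 and 832 and differed by -3.04 ± 0.48. EXPA8, which had 92.0 and 43.1 and then 151 and 109 in wild type, differed by -2.39 ± 0.35. GH3.17 had 859 and 449 and then 749 and 495 and differed by -1.66 ± 0.26, a difference lost without the block (adjusted p = 0.786). WES1 differed by -1.29 ± 0.21 and lost its call without the block and without the second ckh1-1 array at 200 ng/ml (adjusted p up to 1). LBD16, PUCHI and BBM fell in wild type too, by 0.88 ± 0.20, 0.73 ± 0.17 and 1.16 ± 0.28, calls lost there without the block (adjusted p = 0.472, 0.299 and 0.136). Their steps did not differ from those of ckh1-1 past the test (adjusted p = 0.404, 0.179 and 0.624).

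In the other direction, the 4 genes named for a higher step in ckh1-1 than in wild type fell in wild type and were not called in ckh1-1. The GDSL lipase AT2G23540 had 310.2 and 289 and then 56.3 and 35.3 in wild type against 265 and 176 and then 372 and 232 in ckh1-1, a difference between steps of 2.57 ± 0.22 (adjusted p = 3.12e-05, limma). AT4G38080, a hydroxyproline-rich glycoprotein, had 316 and 636 and then 114 and 45.6 against 477 and 458 and then 594 and 539.6, a difference of 2.49 ± 0.40. AT3G22620, of the lipid transfer protein family, had 372 and 434 and then 71.4 and 26.8 against 348 and 250.5 and then 304 and 234, a difference of 2.42 ± 0.33. The GDSL lipase AT1G74460 differed by 2.22 ± 0.34. The latter pair lost their calls without the block (adjusted p = 0.0897 and 0.334). Members of the GDSL and lipid transfer families thus moved in opposite relation to wild type, AT5G45670 and AT5G01870 further down in ckh1-1 and AT2G23540, AT1G74460 and AT3G22620 further down in wild type.

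**Figure D5:**
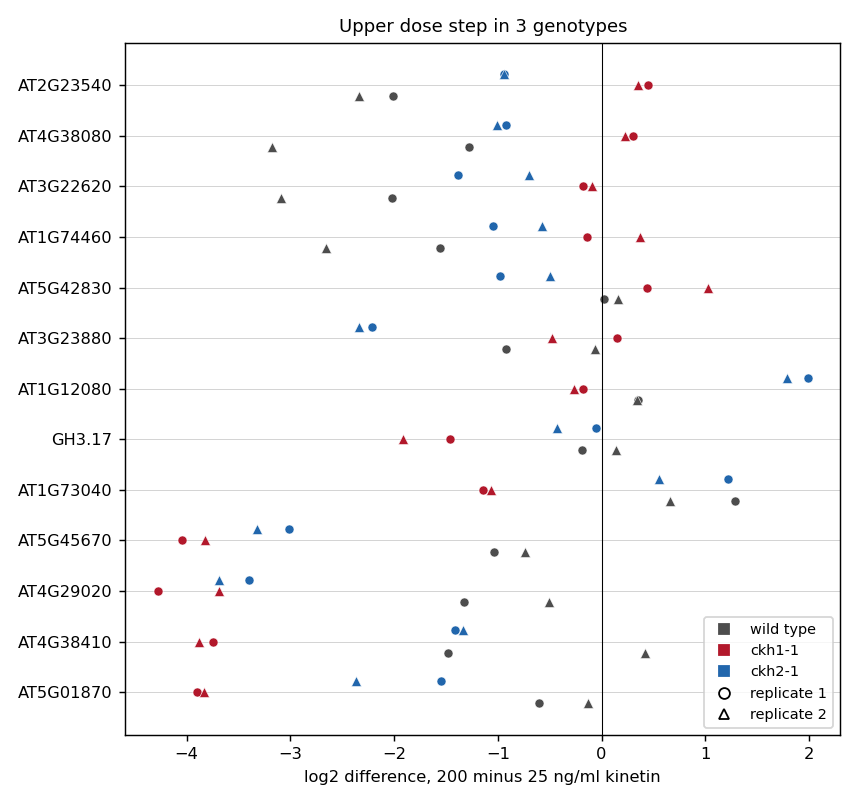
Difference between 200 and 25 ng/ml kinetin (log2 scale, signal + 27.38) within replicate 1 (circles) and replicate 2 (triangles) for the 13 genes named by a difference between genotypes; wild type grey, ckh1-1 red, ckh2-1 blue. AT5G01870 lies below -3.5 in ckh1-1 in both replicates, and AT2G23540 lies below 0 in wild type and ckh2-1 and above 0 in ckh1-1.

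At the upper step of ckh2-1 falls outnumbered rises, except with quantile normalization. In ckh2-1 821 probe sets were lower (5.31%) and 627 higher (4.05%), 9.36% in all, or 323 and 105 without the block. With quantile normalization 755 were lower and 783 higher, so the excess of falls turned. With every array set to the same trimmed mean, without the block, 700 were lower and 478 higher. The totals were 619 without its first 200 ng/ml array, 902 without the second and 913 without the first 25 ng/ml array. Of the 560 lower in ckh1-1, 412 were also lower in ckh2-1, 73.6% of the ckh1-1 list and 50.2% of the ckh2-1 list. Of the 212 higher, 94 were also higher in ckh2-1, 44.3% and 15%. AT4G29020 fell by 3.54 ± 0.20 in ckh2-1, from 2176 and 2125 to 181 and 139.9, AT5G48940 by 3.08 ± 0.28, PUCHI by 1.96 ± 0.17 and BBM by 2.33 ± 0.28. A difference between both mutants was called for 15 probe sets (0.097%), 10 with a lower (0.0646%) and 5 with a higher value (0.0323%) in ckh1-1. Without the block the count was 0 in limma, with 309 at an unadjusted p below 0.05. Where every array was first set to the same trimmed mean, the count without the block was 14. Leaving out 1 array gave 1 to 5 calls, except without the second 25 ng/ml array of ckh2-1, where 168 were called, 124 of them higher in ckh1-1.

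The genes named by this difference are accordingly given as values. AT5G01870 had 8305 and 9008 and then 2819 and 1718 in ckh2-1, a difference between mutants of -1.91 ± 0.28 (adjusted p = 0.0202, limma; 0.483 without the block). AT1G12080 had 238 and 193 and then 207 and 156 in ckh1-1 against 418 and 366 and then 1746 and 1334 in ckh2-1, a difference of -2.12 ± 0.26. GH3.17 had 987 and 786 and then 952 and 577 in ckh2-1 and differed by -1.44 ± 0.26 (adjusted p = 0.0495). Both ckh2-1 arrays of GH3.17 at 200 ng/ml were above both of ckh1-1. AT1G73040, of a lectin family, went from 156 and 128 to 55.9 and 46.9 in ckh1-1 and from 17.0 and 23.8 to 76.0 and 47.8 in ckh2-1, in opposite directions, and differed by -1.99 ± 0.31. It also differed from wild type, by -2.08 ± 0.31 (adjusted p = 0.00273), and there under every alternative. Higher in ckh1-1 were the steps of AT3G23880 (2.11 ± 0.36), AT5G42830 (1.48 ± 0.23) and AT2G23540 (1.34 ± 0.22). None of these 7 differences between the mutants was called under every alternative, the block and the single arrays included.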

How the data were processed

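Total RNA of cultured hypocotyl segments was labelled with biotin and hybridised to Affymetrix arrays, per the labels' protocols. The deposited values are linear signal intensities that the authors made with MAS5, per the submitters' processing notes. Its version is not given here in any source used, nor is the target of its scaling. Groups and replicate numbers were taken from the titles.

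Of 22810 probe sets, 64 controls were left out, which left 22746. A probe set was tested where at least 1 of the 10 group means exceeded 6.553 on the log2 scale, the percentile 40 of the whole table, and 15469 passed. Values were log2(signal + 27.38), where 27.38 is 0.1 of the median trimmed mean (2% trimmed). One limma 3.58.1 fit in R 4.3.3 (lmFit, eBayes with a trend) held 10 group means and the replicate number as a block, with 9 residual degrees of freedom (10 without the block). Each comparison had its own Benjamini-Hochberg adjustment, with calls at an adjusted p below 0.05. Differences between genotypes and between steps are contrasts of this fit.

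The block removes the scaling difference between replicate numbers (0.39 on the log2 scale). Beyond scaling the numbers do not clearly pair the samples: over 45 pairs of groups the correlation of replicate differences ran from -0.13 to 0.64 with a median of 0.2, and 27 exceeded 0.1. It was 0.06 between ckh1-1 at 25 and at 200 ng/ml and 0.51 between ckh1-1 at 0 and at 25 ng/ml. In simulated data for ckh1-1, 200 against 25 ng/ml, over 15469 probe sets the blocked fit recovered 76 of 100 changes of 1 and 97 of 100 of 2 on the log2 scale, with 7 unchanged called. Without the block these were 13, 96 and 1. The simulated data held the fitted replicate shift and independent noise with the spread of the blocked fit. The advantage of the block was thus built in, and these counts cannot tell whether it suits the real arrays.

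The array's name table gives 1 gene for 13513 probe sets, several for 503 and none for 8730. Named are the 12 genes with the largest rise and the 12 with the largest fall, and up to 4 each way for differences between genotypes and steps. They had to be called, map to 1 gene, keep their sign in both replicates and reach a mean signal above 115 in the higher group. Called members of 24 gene lists (367 entries, 88 named on the array, 70 tested), type-A regulators and genes followed from earlier results stand beside them. For a gene with several probe sets the brightest stands. The members, lists and rules were chosen with earlier results of these data known. Lists with members named here as GH3, Aux/IAA, plastid-encoded and IQD genes were added later, the last after its values were seen. Lists for auxin transport and ethylene had no named probe set. Those for shoot meristem and pathogenesis-related genes had 1 named member each and none tested, and of 2 tested anthocyanin genes none was called.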

Additional observations from a re-analysis of the deposited data

Results flagged for a closer look

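The following differences between genotypes in the step from 25 to 200 ng/ml passed the test of the difference itself and are listed for a second look. All are log2 differences, ckh1-1 minus the other genotype. Most of the genes were named for their fall in ckh1-1, and their difference from another genotype uses the same ckh1-1 arrays, so it is no independent support.

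Against wild type 21 named genes were listed, 17 with a lower and 4 with a higher value in ckh1-1. The lowest values were those of AT5G01870 (-3.50), AT4G38410 (-3.29), AT4G29020 (-3.06) and AT5G45670 (-3.04). The defensin PDF2.5 had -2.70, the GDSL lipases AT3G16370 and AT3G48460 -2.54 and -2.0, the expansin EXPA8 -2.39 and the chitinase family gene AT1G56680 -2.33. AT5G58750 had -2.11, AT1G73040 -2.08 and the glycine-rich AT4G21620 -2.05. The receptor-like kinases AT5G48940 and AT3G24240 had -1.89 and -1.78, the auxin-conjugating enzymes GH3.17 and WES1 -1.66 and -1.29, and iqd15 -1.27. Higher in ckh1-1 were AT2G23540 (2.57), AT4G38080 (2.49), AT3G22620 (2.42) and AT1G74460 (2.22). Of the 21, 9 were called under every alternative.

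Against ckh2-1 7 genes were listed. Lower in ckh1-1 were AT1G12080 (-2.12), AT1G73040 (-1.99), AT5G01870 (-1.91) and GH3.17 (-1.44), and higher were AT3G23880 (2.11), AT5G42830 (1.48) and AT2G23540 (1.34). None of the 7 was called under every alternative.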

How the results depend on the processing

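No named gene called with the block changed sign in that comparison under any alternative run. Among genes not called at the upper step of ckh1-1 the sign was not settled for AT1G74460 (-0.04 to 0.27), AT3G23880 (-0.57 to 0.15), RCA (-0.04 to 0.34) and AT5G02230 (-0.16 to 0.02). The majority direction of calls turned in 2 counts: quantile normalization gave 783 higher and 755 lower for ckh2-1 (627 and 821 as reported), and ckh1-1 minus ckh2-1 had 124 higher and 44 lower without the second ckh2-1 array at 25 ng/ml (5 and 10 as reported). With no replicate block the totals were 280 for ckh1-1, 200 against 25 ng/ml (772 with it), 299 for 25 against 0 (1471), 76 for wild type (658), 428 for ckh2-1 (1448), 28 for ckh1-1 minus wild type (125), 0 for ckh1-1 minus ckh2-1 (15) and 8 for the step difference (48). Setting every array to the same trimmed mean, without the block, gave 597 for the main comparison, 1162 for 25 against 0 and 461 for wild type. The same setting gave 1178 for ckh2-1, 104 for ckh1-1 minus wild type, 14 for ckh1-1 minus ckh2-1 and 35 for the step difference. For the main comparison quantile normalization gave 679, no filter 609, a pseudocount of 2.738 810 and a fit of only the genotypes compared 890. A fit of the wild type arrays alone gave 193 for wild type, and the cause was not tested. With 1 array left out at a time, its group having 1 array that is assumed to vary like the others, totals ran from 318 to 519 for the main comparison, 524 to 952 for 25 against 0, 146 to 629 for wild type, 619 to 1115 for ckh2-1, 62 to 179 for ckh1-1 minus wild type, 1 to 168 for ckh1-1 minus ckh2-1 and 1 to 40 for the step difference. The 179 came without the first wild type array at 25 ng/ml and the 168 without the second ckh2-1 array at 25 ng/ml, and the cause was not tested. Of 52 named genes called in the main comparison 32 were called under every alternative. For genes near the floor the size of a fall depends on the pseudocount. The pairing check did not show every pair of groups to share deviations beyond scaling. A call lost without the block is given as a limit on the support of that call, and is not read as a smaller effect.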
